A study of Homo sapiens with 12 samples.

Results

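Autophagosome formation machinery is the set of proteins that builds the double membrane vesicle of autophagy, the route by which a cell encloses its own cytoplasm and delivers it to the lysosome. A total of 43 genes were chosen by their known role in this process, with earlier results of these data known. They were grouped as the ULK complex, the class III PI3K complex, ATG9 and lipid transfer, the PI3P effectors, the conjugation enzymes with the ATG4 proteases, the transport and fusion factors and the transcription factors TFEB and TFE3. The ATG8 family genes themselves were not among them. Each gene was read at its brightest probe, and 42 of the 43 were tested among 12760 genes in all. PLEKHM1, an adaptor of lysosome fusion, had no probe under its symbol in the annotation used and was not analysed here.

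The cells were SNU-5 and MKN45, 2 human gastric cancer lines with amplified MET, a receptor tyrosine kinase. The groups were SNU-5 with 1 µM crizotinib, a small molecule MET inhibitor, for 24 h, SNU-5 control without it, MKN45 with the same treatment and MKN45 control, with 3 arrays in each. SNU-5 cells were grown in Iscove's modified Dulbecco's medium and MKN45 cells in RPMI-1640, so line and medium cannot be told apart. Neither the labels nor the methods say that the 3 replicates were separate cultures, so every p-value here reflects the spread of these arrays alone, which could be technical.

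In the initiation of autophagy, mTORC1 holds the ULK kinase complex inactive while nutrients and growth signals are present, and AMPK can activate it. Once active, the ULK complex turns on the class III PI3K complex, which makes the lipid PI3P on the forming membrane, and ATG2, ATG9 and their partners supply lipid to it. PI3P binding WIPI proteins then bring in ATG16L1, whose complex with the ATG12-ATG5 conjugate directs ATG8 proteins onto the membrane. Tethers and SNARE proteins finally fuse the closed vesicle with the lysosome. TFEB and TFE3 are transcription factors that bind E-box sequences and switch on autophagy and lysosome genes.

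Of the 42 genes, 34 were detected (detection p under 0.05) on all 12 arrays. An array's mean signal lay between 313 and 332 in the crizotinib arrays of SNU-5, between 328 and 557 in its controls, between 386 and 444 in the crizotinib arrays of MKN45 and between 404 and 499 in its controls. SNU-5 control replicate 1 stood apart. Its log2 values correlated with those of the other SNU-5 controls at 0.964 to 0.974, against 0.986 to 0.994 within the other 3 groups, and it had the highest mean signal of all arrays. Values without this array are given beside the members whose SNU-5 change moved most when it was left out. Each of 6 epithelial markers was detected on all 3 arrays of both crizotinib groups. In the controls the same held except for CDH1 in SNU-5 and CLDN4 in MKN45, which were detected but not on all 3 arrays. Of 4 leukocyte markers read, CD68 and LYZ were detected on all arrays and the defining genes PTPRC and CD3E on none, and the mean level of the 4 was 5.81 to 6.29 in SNU-5 with crizotinib, 5.21 to 6.15 in its controls, 6.88 to 7.26 in MKN45 with crizotinib and 6.80 to 7.17 in its controls. Of 5 fibroblast markers, DCN and LUM were detected on all 3 SNU-5 crizotinib arrays, and COL1A2 and LUM on all 3 SNU-5 controls. COL1A1 was detected on all 3 arrays of each MKN45 group, and LUM also on all 3 MKN45 controls. Mean levels of the 5 were 6.64 to 6.82 in SNU-5 with crizotinib, 6.41 to 6.45 in its controls and between 4.64 and 4.88 in MKN45. None of 4 endothelial markers was detected on all 3 arrays of a group. The part of other cell types in the results was not tested. Levels below are log2 signals after background correction and quantile normalization, and are compared only within a probe. In bulk RNA, fewer expressing cells and less RNA per cell cannot be told apart.

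The promoters of 4 members are shown, chosen by the results. ULK1 rose most among the members in both lines, and ATG16L1 fell most in SNU-5. ATG14 and ATG3 have the same E-box near their start. ATG14 rose in both lines, while ATG3 was lower in SNU-5 and did not pass in MKN45 at its brightest probe. The sequences run 5′ to 3′ on the strand of the gene, from 250 bases before to 20 bases after the start site, and were taken from RefSeq on GRCh38.p14. They lie at chr12:131894372-131894641 on the plus strand for ULK1, at chr2:233251423-233251692 on the plus strand for ATG16L1, at chr14:55411811-55412080 on the minus strand for ATG14 and at chr3:112561943-112562212 on the minus strand for ATG3. Capitals mark the E-box CACGTG.
ULK1: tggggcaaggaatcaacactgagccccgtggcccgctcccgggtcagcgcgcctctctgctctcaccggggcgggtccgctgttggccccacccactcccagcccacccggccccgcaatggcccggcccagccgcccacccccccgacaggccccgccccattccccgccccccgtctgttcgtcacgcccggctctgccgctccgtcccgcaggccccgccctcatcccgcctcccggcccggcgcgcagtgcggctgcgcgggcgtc
ATG16L1: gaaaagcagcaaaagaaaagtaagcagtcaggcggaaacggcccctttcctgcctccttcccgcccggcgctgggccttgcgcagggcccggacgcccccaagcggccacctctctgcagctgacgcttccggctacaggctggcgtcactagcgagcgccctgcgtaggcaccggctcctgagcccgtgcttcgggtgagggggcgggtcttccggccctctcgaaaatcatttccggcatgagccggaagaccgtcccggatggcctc
ATG14: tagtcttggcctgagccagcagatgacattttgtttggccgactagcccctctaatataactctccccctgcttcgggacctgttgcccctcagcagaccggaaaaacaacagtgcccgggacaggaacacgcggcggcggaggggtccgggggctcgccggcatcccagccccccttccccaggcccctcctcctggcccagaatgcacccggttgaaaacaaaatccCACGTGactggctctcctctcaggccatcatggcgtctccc
ATG3: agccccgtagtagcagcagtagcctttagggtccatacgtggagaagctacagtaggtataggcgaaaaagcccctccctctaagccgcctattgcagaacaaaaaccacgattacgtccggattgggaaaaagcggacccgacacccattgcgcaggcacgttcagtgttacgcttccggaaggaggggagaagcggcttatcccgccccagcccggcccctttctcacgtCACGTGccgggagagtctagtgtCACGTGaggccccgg
The search used promoters of 300 bases, from 250 before to 50 after the start, on both strands. Promoters were matched by symbol for 37 members, which had 45 in all. The E-box CACGTG, which reads the same on both strands, was in 3 of them (6.67%), those of ATG14, ATG3 and SNAP29, and in 7.26% of all 35116 promoters. In ATG14 it began 21 bases before the start, and in ATG3 there was a copy 18 bases before and another 6 bases after it. The FOXO motif GTAAACA was in 1 member promoter, of WDR45 (2.22%, against 3.42% of all), and the AP-1 motif TGACTCA in 3, of WDR45, ZFYVE1 and TFE3 (6.67%, against 4.95% of all). No site of one motif overlapped a site of another. A match describes letters in the window and is no measured binding site.

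Crizotinib raised 12 of the 42 genes in SNU-5 (28.6%) and lowered 3 (7.14%), at an adjusted p under 0.05 in the limma fit with Benjamini-Hochberg adjustment over all probes kept. Over all 12760 genes, 18% were called higher and 17.2% lower in SNU-5. In MKN45, 10 genes were higher (23.8%) and 1 was lower (2.38%), against 17.9% of all genes called higher and 17.9% called lower. The count of 10 was 6 without MKN45 crizotinib replicate 1 or without replicate 2. The median log2 change of the 42 genes was 0.24 in SNU-5 and 0.13 in MKN45, while the median over all genes was 0.02 in SNU-5 and 0 in MKN45. Counted in either direction, 35.7% of members were called in SNU-5 and 26.2% in MKN45, and 35.2% and 35.8% of all genes were. The arrays of crizotinib and control did not overlap for 14 higher (33.3%) and 5 lower (11.9%) members in SNU-5. Of all genes, 24.6% and 22.9% were separated in these directions. In MKN45 the arrays did not overlap for 13 higher (31%) and 4 lower (9.52%) members, against 24.7% and 24.4% of all genes.

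With the thresholds of the study's methods (p under 0.001, adjusted p under 0.05 and at least 2-fold), 6 members (14.3%) were higher and 1 (2.38%) lower in SNU-5. Of all genes, 7.08% passed upward and 7.46% downward there. In MKN45, 3 (7.14%) were higher and 0 lower, against 7.32% and 7.19% of all genes, so the share called higher was no larger than over all genes. The 6 genes (14.3%) that rose in both lines at the adjusted p were ULK1, BECN1, ATG14, WIPI1, ZFYVE1 and ATG10, where 9.09% of all genes rose in both. The SNU-5 call of ATG10 was lost in most alternatives, as given below. ATG5 was higher in SNU-5 and lower in MKN45. A further 5 genes (RB1CC1, TMEM41B, WIPI2, WDR45 and VAMP8) passed upward in SNU-5 alone, and 4 (SH3GLB1, ATG4D, TECPR1 and FYCO1) in MKN45 alone. ATG101, ATG3 and ATG16L1 were lower in SNU-5 and did not pass in MKN45. The remaining 23 genes passed in neither line. Passing in a single line is no test of a difference between the lines, which is given further on.

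**Figure D1:**
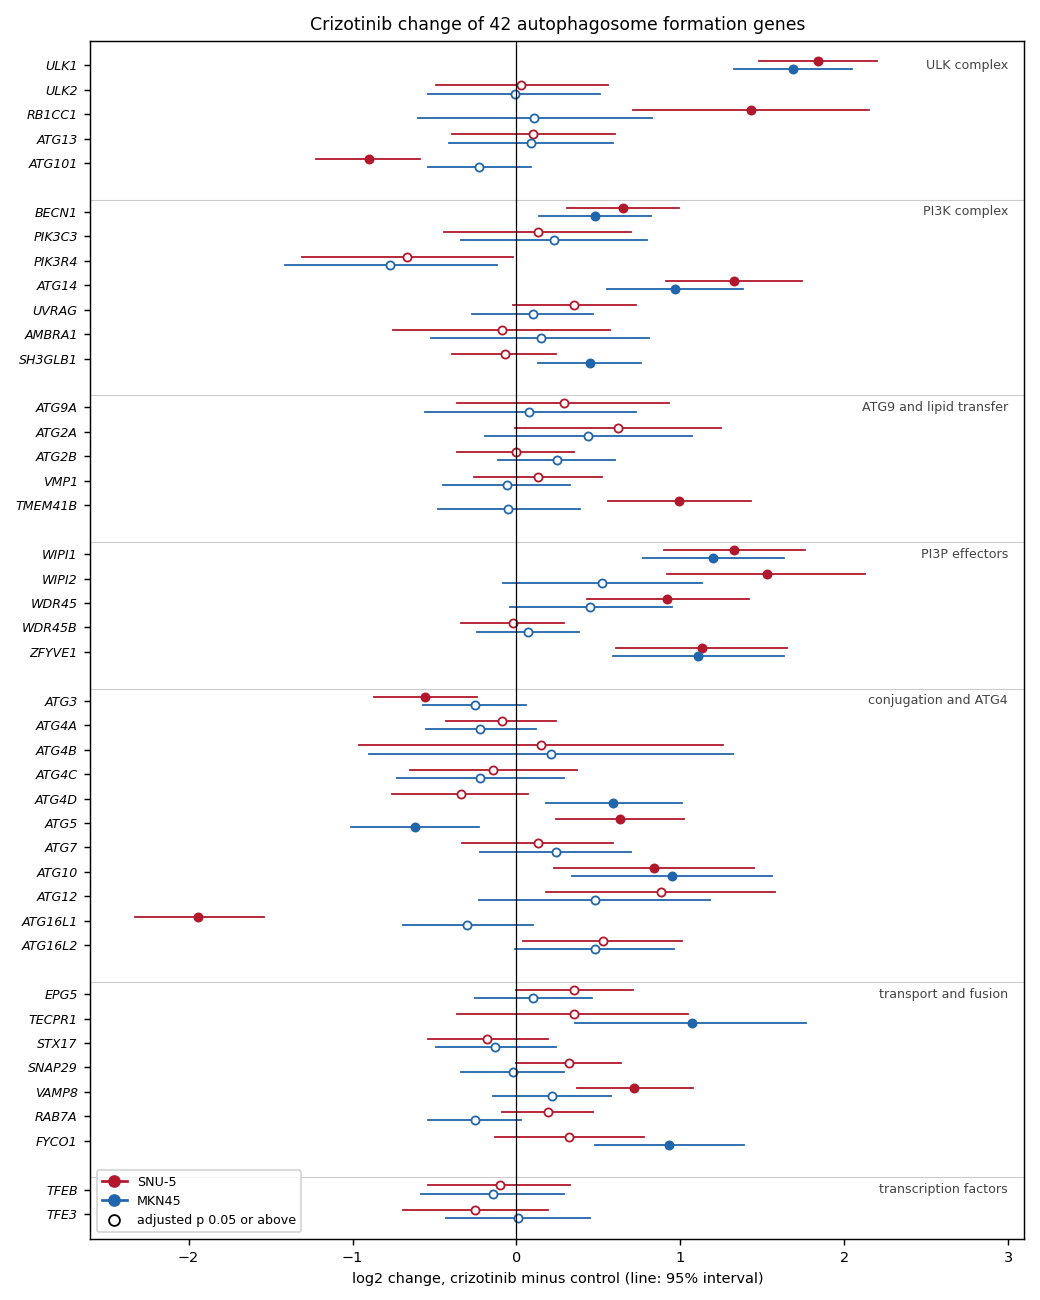
Log2 change with crizotinib (crizotinib minus control, x axis) for the 42 genes tested, grouped by role, with SNU-5 in red above MKN45 in blue. Points are the fitted changes of 3 against 3 arrays, lines their 95% intervals, and open points an adjusted p of 0.05 or above. ULK1 lay at 1.84 in SNU-5 and 1.69 in MKN45, and ATG16L1 at -1.94 in SNU-5 and -0.30 in MKN45.

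The ULK complex starts the process, and its kinase gene ULK1 had the largest rise among the members in both lines. ULK1 read 10.80, 10.70 and 10.80 in SNU-5 with crizotinib, against 9.10, 8.82 and 8.85 in SNU-5 control. In MKN45 it read 11.18, 11.36 and 11.28 with crizotinib, against 9.22, 9.77 and 9.77 in control. Every treated array was above every control array of its line. The log2 change was 1.84 (SE 0.17, 3.58-fold, adjusted p = 3.1e-06) in SNU-5 and 1.69 (SE 0.17, 3.22-fold, adjusted p = 6.4e-06) in MKN45. A second ULK1 probe gave 1.86 in SNU-5 and 1.66 in MKN45. The ULK1 call held in both lines under each alternative run.

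RB1CC1 encodes FIP200, the scaffold of the complex. It read 8.59, 8.15 and 8.69 in SNU-5 with crizotinib, against 6.27, 7.43 and 7.45 in SNU-5 control. The groups did not overlap, and the lowest control was replicate 1. This was a log2 change of 1.43 (SE 0.33, 2.69-fold, adjusted p = 0.005), and 1.04 (adjusted p = 0.011) without that array. In MKN45 the levels of RB1CC1 overlapped, with 6.88, 6.65 and 7.74 on crizotinib arrays and 7.28, 6.94 and 6.71 on control arrays, and a log2 change of 0.11 (adjusted p = 0.85). The difference between the lines, 1.31, did not pass (adjusted p = 0.1). It did so without MKN45 crizotinib replicate 3, the highest array (1.64, adjusted p = 0.033).

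ATG101, which stabilises ATG13 in the complex, was lower in SNU-5. It read 8.53, 8.46 and 8.58 with crizotinib, against 9.48, 9.47 and 9.33 in control, a log2 change of -0.90 (SE 0.15, adjusted p = 0.00038). In MKN45 the change of ATG101 was -0.23 (adjusted p = 0.29), and the difference between the lines was -0.68 (adjusted p = 0.057). That difference passed without background correction and with the deposited values (-0.63, adjusted p = 0.028 in each), and with no filter on dim probes (adjusted p = 0.031). It also passed in the run with the mean over probes (adjusted p = 0.04). ATG101 has 1 probe, so its own values were the same in that run, which is no separate check of it. ATG13, the regulatory subunit that links ULK1 to FIP200, was dim and was detected on 10 of 12 arrays. Its log2 change was 0.10 in SNU-5 (95% interval -0.39 to 0.60), or 0.38 (adjusted p = 0.15) without control replicate 1, and 0.09 in MKN45 (-0.41 to 0.59). ULK2, the second kinase, changed by 0.03 and -0.01 (adjusted p = 0.94 and 0.98). So of the 5 genes of the complex, 2 were higher and 1 lower in SNU-5, where 18% and 17.2% of all genes were. In MKN45, 1 of the 5 was higher, where 17.9% of all genes were.

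The class III PI3K complex makes PI3P. Its autophagy subunit ATG14, which brings the complex to the site of membrane formation, rose in both lines. ATG14 read 7.76, 7.81 and 7.83 in SNU-5 with crizotinib, against 6.83, 6.19 and 6.39 in control. The MKN45 levels were 8.23, 8.07 and 8.67 with crizotinib, against 7.50, 7.31 and 7.26 in control. No treated array overlapped a control array of its line. The log2 change was 1.33 (SE 0.19, 2.51-fold, adjusted p = 0.00016) in SNU-5 and 0.97 (SE 0.19, 1.95-fold, adjusted p = 0.0017) in MKN45.

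BECN1 encodes Beclin 1, the scaffold subunit. It read 9.41, 9.43 and 9.43 in SNU-5 with crizotinib, against 8.54, 8.92 and 8.85 in control, a log2 change of 0.65 (adjusted p = 0.0063). In MKN45 the levels were 10.26, 10.01 and 10.00 with crizotinib, against 9.81, 9.41 and 9.61 in control, a log2 change of 0.48 (adjusted p = 0.033). Again no groups overlapped. The MKN45 call was lost without crizotinib replicate 1 (0.40, adjusted p = 0.13) or 2 (0.52, adjusted p = 0.056), or without control replicate 2 (0.38, adjusted p = 0.13) or 3 (0.48, adjusted p = 0.074).

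SH3GLB1 encodes Bif-1, a membrane curving partner of UVRAG and Beclin 1. Its log2 change was 0.45 in MKN45 (adjusted p = 0.033, and 0.06 with the replicate number as a block) and -0.07 in SNU-5 (adjusted p = 0.77). The MKN45 call of SH3GLB1 was lost without any single crizotinib array and without control replicate 1 or 3, with adjusted p between 0.063 and 0.097. The lipid kinase itself, PIK3C3, changed by 0.13 in SNU-5 (95% interval -0.44 to 0.70) and 0.23 in MKN45 (-0.34 to 0.80). PIK3R4, its pseudokinase partner VPS15, was at -0.67 in SNU-5 (adjusted p = 0.12), or -0.36 (adjusted p = 0.36) without control replicate 1, and at -0.77 in MKN45 (adjusted p = 0.07). With the replicate number as a block the MKN45 change of PIK3R4 passed (adjusted p = 0.0089), which makes 2 members lower in MKN45. It also passed without SNU-5 control replicate 1 (adjusted p = 0.024) and without MKN45 control replicate 3 (-1.02, adjusted p = 0.029). UVRAG, the subunit of the endosomal form of the complex, and AMBRA1, a regulator of Beclin 1, did not pass in either line. AMBRA1 was at -0.09 in SNU-5 over all arrays and at 0.34 (adjusted p = 0.29) without control replicate 1.

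**Figure D2:**
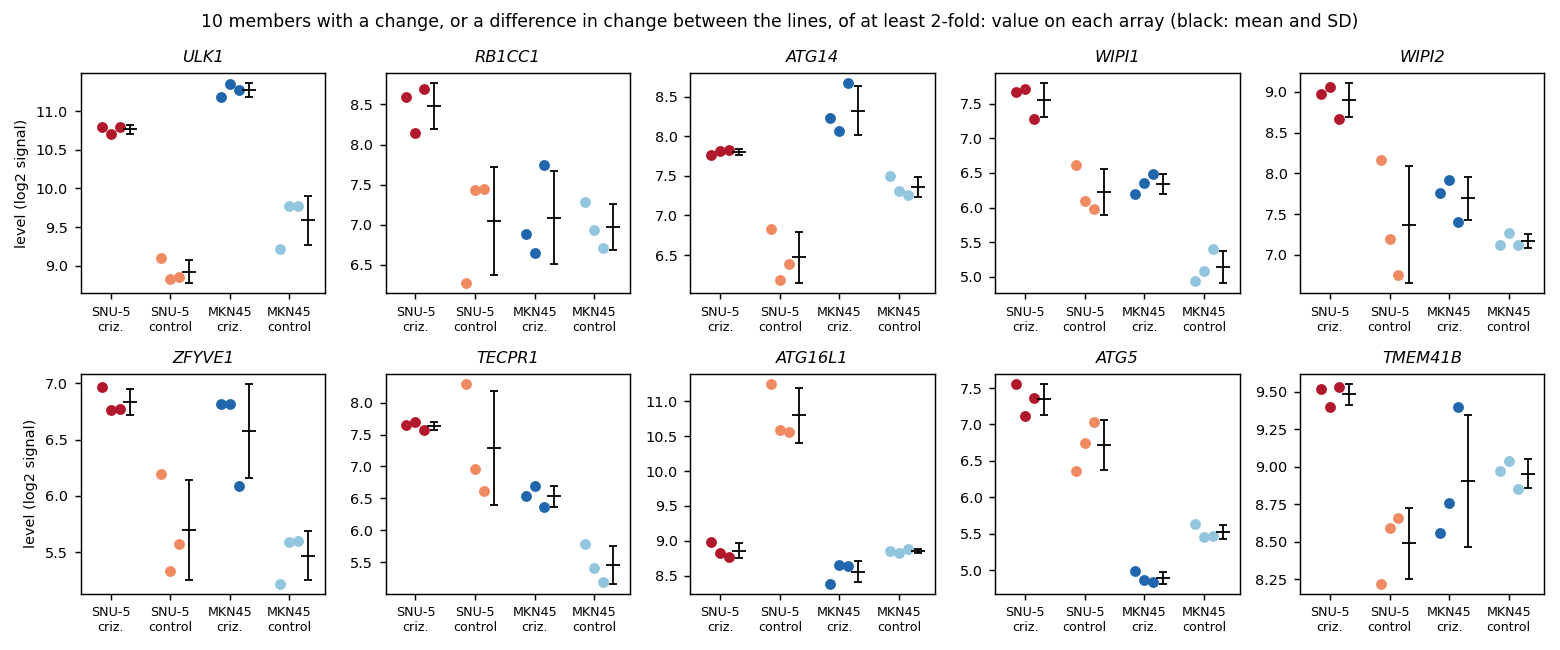
Log2 signal (y axis, own scale per gene) on each of the 12 arrays for the 10 members with a change in a line, or a difference in change between the lines, of at least 2-fold at an adjusted p under 0.05. Coloured points are arrays, and black bars are the mean and SD of 3. ULK1, ATG14 and WIPI1 were above their controls on every array of both lines, while ATG16L1 in SNU-5 dropped to 8.77 to 8.98 with crizotinib, against 10.56 to 11.25 in control.

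Among the PI3P effectors, 4 of 5 genes rose in SNU-5 and 2 in MKN45, where 18% and 17.9% of all genes did, and the median change of the 5 was 1.13 in SNU-5 and 0.52 in MKN45. WIPI1, a PI3P binding protein of the early membrane, read 7.67, 7.72 and 7.28 in SNU-5 with crizotinib, against 6.61, 6.09 and 5.98 in control. It read 6.20, 6.35 and 6.48 in MKN45 with crizotinib, against 4.94, 5.08 and 5.40 in control. The groups were apart in both lines. The log2 change was 1.33 (SE 0.20, 2.52-fold, adjusted p = 0.00019) in SNU-5 and 1.20 (SE 0.20, 2.30-fold, adjusted p = 0.00043) in MKN45.

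WIPI2 encodes the PI3P binding protein that recruits ATG16L1. It read 8.97, 9.06 and 8.67 in SNU-5 with crizotinib, against 8.16, 7.20 and 6.75 in control. The treated arrays were all above the controls, of which replicate 1 was the highest. WIPI2 changed by 1.53 (SE 0.28, 2.89-fold, adjusted p = 0.00098), and 1.92 (adjusted p = 5.5e-06) without that array. In MKN45 WIPI2 read 7.76, 7.92 and 7.40 with crizotinib, against 7.12, 7.27 and 7.12 in control. The groups again did not overlap, but the change of 0.52 (SE 0.28) did not pass (adjusted p = 0.19). Without SNU-5 control replicate 1, which enters the shared estimate of spread, it did (0.52, adjusted p = 0.03). The line difference of WIPI2 was 1.01 (adjusted p = 0.14), and 1.40 (adjusted p = 0.0031) without SNU-5 control replicate 1.

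ZFYVE1 encodes DFCP1, a PI3P binding protein that marks the omegasome, where the membrane forms. It read 6.97, 6.76 and 6.77 in SNU-5 with crizotinib, against 6.19, 5.33 and 5.57 in control. MKN45 arrays gave 6.82, 6.82 and 6.09 with crizotinib, against 5.22, 5.59 and 5.60 in control. Groups did not overlap in either line. The log2 change was 1.13 (SE 0.24, 2.19-fold, adjusted p = 0.0028) in SNU-5 and 1.11 (SE 0.24, 2.15-fold, adjusted p = 0.0032) in MKN45. Without SNU-5 control replicate 1 the SNU-5 change was 1.38 (adjusted p = 0.00026). A dimmer second ZFYVE1 probe did not follow, with 0.16 (adjusted p = 0.54) in SNU-5 and 0.20 (adjusted p = 0.42) in MKN45.

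WDR45 (WIPI4), which binds ATG2, changed by 0.92 (adjusted p = 0.0073) in SNU-5 and 0.45 (adjusted p = 0.16) in MKN45. Leaving out SNU-5 control replicate 1 gave 1.16 (adjusted p = 0.00071) for WDR45 in SNU-5. Its middle probe gave 1.03 (adjusted p = 0.0026) in SNU-5, and its dimmest probe gave -0.04 (adjusted p = 0.89). WDR45B (WIPI3) changed by -0.02 in SNU-5 (adjusted p = 0.93) and 0.07 in MKN45 (adjusted p = 0.78).

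**Figure D3:**
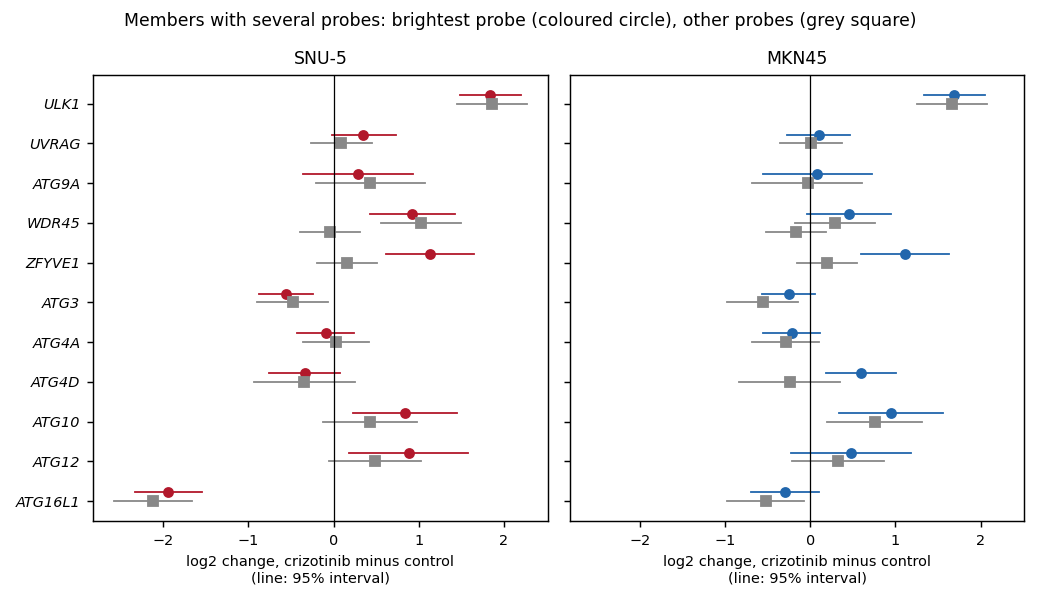
Log2 change with crizotinib (x axis) at every kept probe of the 11 members that had more than 1, in SNU-5 (left) and MKN45 (right). Coloured circles are the brightest probe, grey squares the others, and lines the 95% intervals. The probes of ULK1 and ATG16L1 gave like changes, while the dimmer probes of ZFYVE1, of ATG4D in MKN45 and the dimmest of WDR45 stayed near or below 0.

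In the ATG9 and lipid transfer group, TMEM41B passed, in SNU-5, and the other 4 genes passed in neither line. TMEM41B is a lipid scramblase of the endoplasmic reticulum needed for membrane growth. It read 9.52, 9.40 and 9.53 in SNU-5 with crizotinib, against 8.22, 8.59 and 8.66 in control, a log2 change of 0.99 (SE 0.20, 1.99-fold, adjusted p = 0.002). In MKN45 it read 8.56, 8.76 and 9.40 with crizotinib, against 8.97, 9.04 and 8.85 in control, so the groups overlapped and the change was -0.05 (SE 0.20, adjusted p = 0.9). ATG9A, the scramblase that travels in vesicles to the growing membrane, changed by 0.29 in SNU-5 (adjusted p = 0.54) and 0.08 in MKN45 (adjusted p = 0.88). Its SNU-5 controls ran from 7.76 to 9.23, with replicate 1 the highest, and without that array the change of ATG9A was 0.70 (adjusted p = 0.02). The lipid transfer protein gene ATG2A behaved alike in SNU-5, with 0.62 (adjusted p = 0.14) over all arrays and 1.04 (adjusted p = 0.0011) without that array. ATG2B, the second lipid transfer gene, and VMP1, a scramblase of the same protein family as TMEM41B, changed by -0.06 to 0.25.

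The conjugation system attaches ATG12 to ATG5 and ATG8 proteins to lipid, and ATG16L1 sets where the ATG8 proteins are attached. ATG16L1 had the largest fall. It read 8.98, 8.83 and 8.77 in SNU-5 with crizotinib, against 11.25, 10.58 and 10.56 in control. Each treated array was well below each control array, and the log2 change was -1.94 (SE 0.18, 3.83-fold lower, adjusted p = 4.5e-06), or -1.71 (adjusted p = 1.5e-06) without SNU-5 control replicate 1. In MKN45 it read 8.39, 8.66 and 8.64 with crizotinib, against 8.86, 8.83 and 8.89 in control, a log2 change of -0.30 (SE 0.18, adjusted p = 0.26). A second ATG16L1 probe gave -2.12 (adjusted p = 7e-06) in SNU-5 and -0.52 (adjusted p = 0.079) in MKN45. ATG16L2, a related gene with a lesser role in autophagy, changed by 0.53 (adjusted p = 0.098) in SNU-5 and 0.48 (adjusted p = 0.13) in MKN45. It passed in SNU-5 without control replicate 3 (0.70, adjusted p = 0.04), and in MKN45 without SNU-5 control replicate 2 (adjusted p = 0.048).

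ATG5, the conjugation partner of ATG12 and part of the same complex, moved in opposite directions in the lines. It read 7.55, 7.12 and 7.37 in SNU-5 with crizotinib, against 6.36, 6.75 and 7.04 in control. In MKN45 ATG5 read 4.99, 4.87 and 4.83 with crizotinib, against 5.63, 5.46 and 5.47 in control, and was detected on 1 of the 3 crizotinib arrays and on all 3 controls. Neither line had overlapping groups. ATG5 changed by 0.63 (SE 0.18, adjusted p = 0.017) in SNU-5 and -0.62 (SE 0.18, adjusted p = 0.018) in MKN45. The SNU-5 call of ATG5 was lost without crizotinib replicate 1 (0.53, adjusted p = 0.082) or control replicate 1 (0.45, adjusted p = 0.055). The MKN45 call was lost without crizotinib replicate 2 (-0.60, adjusted p = 0.054) or 3 (-0.59, adjusted p = 0.052) or control replicate 1 (-0.56, adjusted p = 0.06). It was also lost without background correction (-0.32, adjusted p = 0.082).

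The fitted changes of the E2-like enzymes of the 2 conjugation branches had opposite signs, but the 2 genes were not compared by a test. ATG10, which acts on ATG12, was higher by 0.84 (adjusted p = 0.039) in SNU-5 and 0.95 (adjusted p = 0.02) in MKN45. The SNU-5 call of ATG10 was close to the threshold. It was lost in 12 of 19 alternatives, 9 of them with a single array left out: any of the 3 SNU-5 crizotinib arrays, SNU-5 control replicate 1 or 2, MKN45 crizotinib replicate 1 or 2, or MKN45 control replicate 2 or 3, with changes from 0.50 to 0.95 and adjusted p from 0.05 to 0.14. Without SNU-5 control replicate 1 the change of ATG10 was 0.50 (adjusted p = 0.13). The SNU-5 groups overlapped, with 8.88, 8.69 and 9.17 on crizotinib arrays and 7.42, 8.03 and 8.79 on control arrays. A dimmer second ATG10 probe gave 0.43 (adjusted p = 0.24) in SNU-5, and the mean over both probes did not pass there. In MKN45 that second probe read 6.21, 6.63 and 6.43 with crizotinib, against 5.49, 6.05 and 5.46 in control. The MKN45 call of ATG10 was lost without crizotinib replicate 3 (0.79, adjusted p = 0.079) or control replicate 1 (0.85, adjusted p = 0.079). ATG3, which acts on ATG8 proteins, was lower by -0.56 (adjusted p = 0.011) in SNU-5 and was at -0.25 (adjusted p = 0.23) in MKN45. Its SNU-5 call was lost without control replicate 2 (-0.45, adjusted p = 0.056). A much dimmer second ATG3 probe gave -0.48 (adjusted p = 0.078) in SNU-5 and -0.56 (adjusted p = 0.043) in MKN45, and the mean over both probes passed in MKN45 (-0.41, adjusted p = 0.035).

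ATG7, the E1-like enzyme of both branches, changed by 0.13 in SNU-5 (95% interval -0.33 to 0.59) and 0.24 in MKN45 (-0.22 to 0.70). ATG12 read 9.52, 9.31 and 9.77 in SNU-5 with crizotinib, against 7.71, 9.00 and 9.25 in control. All treated arrays were higher, with replicate 1 the lowest control, and the change was 0.88 (adjusted p = 0.058). It passed without SNU-5 control replicate 3 (1.18, adjusted p = 0.014). Without replicate 1 the change of ATG12 was 0.41 (adjusted p = 0.18). In MKN45 it was 0.48 (adjusted p = 0.32).

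The ATG4 proteases cut ATG8 proteins before conjugation and release them afterwards. Of the 4, only ATG4D passed, in MKN45, where it read 6.97, 7.08 and 6.59 with crizotinib, against 5.92, 6.44 and 6.50 in control. The change was 0.59 (SE 0.19, adjusted p = 0.031) in MKN45 and -0.34 (adjusted p = 0.22) in SNU-5. The MKN45 call of ATG4D was lost without crizotinib replicate 1 (0.55, adjusted p = 0.099) or 2 (0.49, adjusted p = 0.12) or control replicate 1 (0.41, adjusted p = 0.13), and a second probe gave -0.24 (adjusted p = 0.58). ATG4B read 7.53 on SNU-5 control replicate 1 and 9.98 and 10.13 on the other SNU-5 controls. Its change was 0.15 (adjusted p = 0.88) over all arrays and -0.69 (adjusted p = 0.042) without that array. ATG4C was at -0.14 (adjusted p = 0.72), and at -0.46 (adjusted p = 0.056) without it.

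Among the transport and fusion factors, VAMP8, the lysosomal SNARE, was higher in SNU-5 by 0.72 (adjusted p = 0.0046) and at 0.22 in MKN45 (adjusted p = 0.39). TECPR1, a tether that binds the ATG12-ATG5 conjugate, read 6.54, 6.69 and 6.36 in MKN45 with crizotinib, against 5.78, 5.41 and 5.19 in control. The groups were apart, and the change was 1.07 (SE 0.33, 2.09-fold, adjusted p = 0.023). In SNU-5 TECPR1 read 7.65, 7.69 and 7.57 with crizotinib, against 8.30, 6.96 and 6.61 in control, with a change of 0.35 (SE 0.33, adjusted p = 0.48) and 0.85 (adjusted p = 0.0034) without replicate 1. The MKN45 call of TECPR1 was lost without crizotinib replicate 1 (adjusted p = 0.063) or 2 (adjusted p = 0.079) or control replicate 2 (adjusted p = 0.066) or 3 (adjusted p = 0.087), and without background correction (0.66, adjusted p = 0.075).

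FYCO1, an adaptor that moves the vesicles along microtubules, was higher in MKN45 by 0.93 (adjusted p = 0.0041). In SNU-5 it was at 0.32 (adjusted p = 0.29), and at 0.57 (adjusted p = 0.023) without control replicate 1. The autophagosomal SNARE genes STX17 and SNAP29, the tether EPG5 and the late endosome GTPase RAB7A did not pass in either line, with changes between -0.25 and 0.35.

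The transcription factors showed no called change. TFE3 read 5.79, 6.01 and 5.69 in SNU-5 with crizotinib and 6.61, 5.90 and 5.73 in SNU-5 control, a change of -0.25 (95% interval -0.69 to 0.19). Control replicate 1 was the highest of these, and without it the change of TFE3 was 0.01 (adjusted p = 0.97). In MKN45 the change of TFE3 was 0.01 (-0.43 to 0.45). TFEB was near the detection limit. It was detected on 1 of 3 SNU-5 crizotinib arrays, on 2 of 3 SNU-5 controls and on no MKN45 array, so no fold is given for MKN45. Its SNU-5 change was -0.10 (-0.54 to 0.33). Both proteins are known to be controlled by phosphorylation and location in the cell, which mRNA does not show.

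The difference in change between the lines was tested itself, by subtracting the change in MKN45 from that in SNU-5. Of the 42 genes, 2 (4.76%) had a more positive change in SNU-5 and 2 (4.76%) a more negative one. Of all genes, 5.82% and 6.14% were called in these directions. ATG16L1 differed by -1.64 (SE 0.26, adjusted p = 0.0012), which was -1.41 (adjusted p = 4e-04) without SNU-5 control replicate 1, and -1.59 (adjusted p = 0.004) at its second probe. ATG5 differed by 1.25 (SE 0.25, adjusted p = 0.007), by 1.07 (adjusted p = 0.0068) without that array, and by 0.80 (adjusted p = 0.015) without background correction. Its MKN45 crizotinib level, detected on 1 of 3 arrays, lies near background. Both calls held under each alternative in which the gene was tested, and both passed the study's thresholds. That made 1 gene (2.38%) in each direction, against 3.32% and 3.43% of all genes. TMEM41B differed by 1.04 (SE 0.29, adjusted p = 0.035) and ATG4D by -0.93 (SE 0.27, adjusted p = 0.047). Leaving out any one of 10 arrays ended the call of TMEM41B (0.87 to 1.09, adjusted p from 0.051 to 0.094), SNU-5 control replicate 3 and MKN45 crizotinib replicate 3 being the exceptions. With the replicate number as a block neither passed (adjusted p = 0.052 for TMEM41B and 0.062 for ATG4D), and taken as the mean over probes ATG4D differed by -0.52 (adjusted p = 0.28). Leaving out any one of 10 arrays also ended that of ATG4D (-1.04 to -0.75, adjusted p from 0.053 to 0.12), with MKN45 crizotinib replicate 3 and MKN45 control replicate 3 the exceptions. For ULK1, WIPI1 and ZFYVE1 the lines differed by 0.15 (95% interval -0.36 to 0.66), 0.13 (-0.47 to 0.73) and 0.03 (-0.71 to 0.76).

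The untreated lines were compared in the same fit. Of the 42 genes, 8 (19%) were higher in SNU-5 control than in MKN45 control and 9 (21.4%) were lower, shares no larger than the 22.7% and 22.5% of all genes. ATG16L1 was 1.94 higher (SE 0.18, 3.83-fold, adjusted p = 1.7e-06), with the values above. TECPR1 was 1.83 higher (SE 0.33, adjusted p = 0.00052), or 1.32 (adjusted p = 6.5e-05) without SNU-5 control replicate 1. ATG5 was 1.20 higher (SE 0.18, adjusted p = 0.00012) and WIPI1 1.09 higher (SE 0.20, adjusted p = 6e-04). With smaller differences ATG10 (0.99), VAMP8 (0.85), WDR45B (0.41, adjusted p = 0.038) and SNAP29 (0.40, adjusted p = 0.047) were also higher in SNU-5. Since these are the same control arrays as in the crizotinib comparisons, a control array that reads high or low enters both.

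ATG4A had the largest difference the other way. It read 6.42, 6.49 and 6.60 in SNU-5 control, against 7.72, 7.79 and 8.24 in MKN45 control, a log2 difference of -1.41 (SE 0.15, 2.67-fold lower, adjusted p = 6.9e-06). ATG4A is a protease of the GABARAP branch, and its crizotinib change passed in neither line. PIK3R4 read 6.38, 5.38 and 5.57 in SNU-5 control, against 7.43, 7.28 and 6.60 in MKN45 control, a difference of -1.33 (SE 0.30, adjusted p = 0.0029). ATG14 (-0.89), BECN1 (-0.84) and UVRAG (-0.48, adjusted p = 0.043) of the same complex were lower in SNU-5 too. That made 4 of its 7 genes lower and 0 higher, where 22.5% of all genes were lower and 22.7% higher. WDR45 (-0.97), RAB7A (-0.80), ULK1 (-0.66) and ATG3 (-0.52) completed the lower genes. The smaller differences depended on single arrays. UVRAG did not pass without SNU-5 crizotinib replicate 1 or 2, SNU-5 control replicate 1 or 3, MKN45 crizotinib replicate 2 or MKN45 control replicate 1 or 2 (-0.48 to -0.36, adjusted p from 0.05 to 0.15). WDR45B did not pass without SNU-5 crizotinib replicate 1 or 2, SNU-5 control replicate 2 or 3, MKN45 crizotinib replicate 1 or MKN45 control replicate 1 or 2 (0.32 to 0.43, adjusted p from 0.05 to 0.12). SNAP29 did not pass without SNU-5 crizotinib replicate 3, any SNU-5 control, any MKN45 crizotinib array or MKN45 control replicate 2 or 3 (0.34 to 0.44, adjusted p from 0.055 to 0.14). The call of ATG3 was lost without MKN45 control replicate 3 (-0.46, adjusted p = 0.05) and that of ATG10 without MKN45 control replicate 1 (0.89, adjusted p = 0.054). Taken as the mean over probes, UVRAG (-0.22, adjusted p = 0.28) and WDR45 (-0.31, adjusted p = 0.13) did not pass. ATG101 was 0.36 higher in SNU-5 control without overlap (adjusted p = 0.066), and passed in 4 of 19 alternatives. These were the runs without background correction, with the deposited values, with no filter on dim probes and with the mean over probes. Without SNU-5 control replicate 3, ATG13 (0.71, adjusted p = 0.027), ATG9A (0.95, adjusted p = 0.015), ATG2A (0.86, adjusted p = 0.038) and ATG4C (-0.72, adjusted p = 0.027) passed. ATG13 also passed without MKN45 control replicate 2 (0.68, adjusted p = 0.047), AMBRA1 without SNU-5 control replicate 2 (1.04, adjusted p = 0.0074) and TMEM41B without MKN45 crizotinib replicate 3 (-0.46, adjusted p = 0.03). At the study's thresholds 4 members (9.52%) were higher and 2 (4.76%) lower, against 10.9% and 10.7% of all genes.

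**Figure D4:**
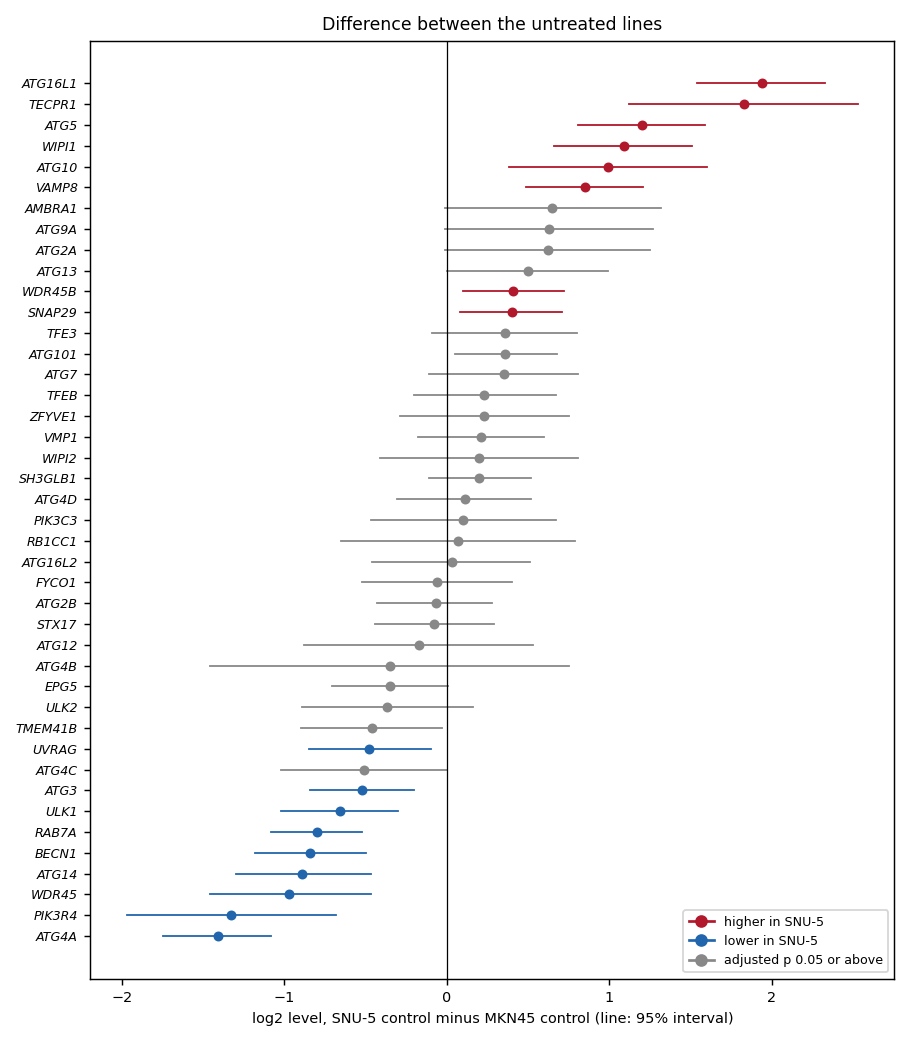
Log2 level in SNU-5 control minus that in MKN45 control (x axis) for the 42 genes, ordered by the difference. Lines are 95% intervals, red and blue mark an adjusted p under 0.05, and grey the rest. ATG16L1 lay at 1.94 at the top and ATG4A at -1.41 at the bottom.

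Genes that act around this machinery were read from 3 lists. Of 33 genes of mTORC1, AMPK and nutrient sensing, 11 were higher and 5 lower in SNU-5 and 9 higher and 1 lower in MKN45. Of all genes, 18% were higher and 17.2% lower in SNU-5, and 17.9% were higher and 17.9% lower in MKN45. DEPTOR, an inhibitory subunit of mTOR complexes, read 8.70, 8.94 and 8.84 in SNU-5 with crizotinib, against 9.84, 9.56 and 9.82 in control. The MKN45 values were 10.23, 9.85 and 9.58 with crizotinib, against 7.59, 7.21 and 7.82 in control. DEPTOR thus fell by 0.91 in SNU-5 (adjusted p = 0.003) and rose by 2.35 in MKN45 (adjusted p = 1.5e-06), a difference of -3.26 (SE 0.28, adjusted p = 9.5e-06). SESN1, a stress-induced inhibitor of mTORC1 signalling, rose by 1.21 (adjusted p = 0.00013) in SNU-5 and 1.66 (adjusted p = 8.7e-06) in MKN45. RRAGB, a GTPase that brings mTORC1 to the lysosome, rose by 1.24 (adjusted p = 3.9e-05) in SNU-5 and 1.40 (adjusted p = 1.4e-05) in MKN45.

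Of 15 partners of the PI3K complex and PI3P phosphatases, 3 were higher and 1 lower in SNU-5, and 5 higher and 1 lower in MKN45, where 18% and 17.2% of all genes were in SNU-5 and 17.9% each way in MKN45. TP53INP2, also called DOR, a protein that binds ATG8 proteins and VMP1, read 7.01, 7.31 and 6.59 in SNU-5 with crizotinib, against 6.14, 5.14 and 5.13 in control. MKN45 values were 9.66, 9.90 and 9.46 with crizotinib, against 5.14, 5.14 and 4.89 in control. The rise was 1.5 (SE 0.26, adjusted p = 0.00069) in SNU-5 and 4.62 (SE 0.26, adjusted p = 7.4e-08) in MKN45, and the lines differed by -3.11 (adjusted p = 0.00014). Its relative TP53INP1, a p53 target, rose by 2.85 (adjusted p = 1.7e-07) in SNU-5 and 2.90 (adjusted p = 1.4e-07) in MKN45. DAPK1, a kinase that can phosphorylate Beclin 1, rose by 1.12 (adjusted p = 0.011) in SNU-5 and 1.33 (adjusted p = 0.0038) in MKN45.

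Of 21 HOPS, SNARE and ESCRT genes of vesicle closure and fusion, 8 were higher and 1 lower in each line, where 18% and 17.9% of all genes were higher in SNU-5 and MKN45 and 17.2% and 17.9% lower. CHMP4B, an ESCRT-III subunit, changed by 0.15 (adjusted p = 0.46) in SNU-5 and rose by 0.71 (adjusted p = 0.00099) in MKN45. VPS4B, the ATPase that takes ESCRT-III apart, rose by 0.79 (adjusted p = 0.0016) in SNU-5 and was at 0.04 (adjusted p = 0.9) in MKN45, a difference of 0.75 (adjusted p = 0.048). VPS16, a core subunit of the HOPS tether, changed by 0.58 (adjusted p = 0.06) in SNU-5 and rose by 1.09 (adjusted p = 0.0017) in MKN45.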

How the data were processed

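The 12 arrays (Illumina HumanHT-12 v4) fall by their labels into 4 groups of 3, each line with crizotinib and without it. For 47323 probes the authors deposited intensities before any normalization or background subtraction, a detection p-value for each, and log2 values quantile normalized in limma without background correction. The scanner software is not given in the sources used here. Probe names came from the platform annotation.

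Background correction and normalization of the intensities used neqc of limma 3.58.1 under R 4.3.3 (normexp with detection p-values, offset 16, quantile normalization, log2). Probes with detection p under 0.05 on at least 3 arrays were kept, 23525 (49.7%) naming 12760 genes. A single lmFit and eBayes model with 4 group means was fitted (8 residual degrees of freedom), and p-values were adjusted by Benjamini-Hochberg over the kept probes within each contrast. A gene was read at its kept probe of highest mean. The number of arrays limits the precision.

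The members and lists were chosen with earlier results of these data known. All members were named or counted. Those past an adjusted p of 0.05 and 2-fold were given array by array, together with 14 core factors named whatever their values, and up to 3 genes of each surrounding list by smallest adjusted p in either line. Per-array values of ATG101, BECN1, ATG12, TFE3, ATG4B, ATG4D, ATG4A, PIK3R4, DEPTOR and TP53INP2, and the non-significant values of ULK2, PIK3R4, ATG2A, ATG4B, ATG16L2 and WDR45B, were added after they were seen.

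Replicate numbers are shared between groups in the labels. Deviations of same-numbered crizotinib and control arrays correlated at 0.11, 0.33 and 0.11 in MKN45 and at 0.10, 0.01 and 0.45 in SNU-5. Differently numbered arrays correlated at -0.31 to 0.14 in MKN45 and at -0.36 to 0.26 in SNU-5. These ranges overlap in both lines, so the correlations do not settle whether the numbers mark pairs. The fit reported used no block, and a block by replicate number was run as an alternative.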

Additional observations from a re-analysis of the deposited data

Results flagged for a closer look

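The change with crizotinib differed between the lines, by the test of the difference itself, for 4 members. ATG16L1 changed by -1.94 in SNU-5 and -0.30 in MKN45, a difference of -1.64 (adjusted p = 0.0012, limma). ATG5 changed by 0.63 in SNU-5 and -0.62 in MKN45, a difference of 1.25 (adjusted p = 0.007), which passed in 17 of 17 alternatives. Its change within a line passed in 15 of 18 alternatives in SNU-5 and in 13 of 18 in MKN45. The MKN45 crizotinib level of ATG5 was near background, detected on 1 of 3 arrays, and the MKN45 call was lost without background correction (-0.32). TMEM41B changed by 0.99 in SNU-5 and -0.05 in MKN45, a difference of 1.04 (adjusted p = 0.035), which passed in 6 of 18 alternatives and did not with the replicate block (adjusted p = 0.052). ATG4D changed by -0.34 in SNU-5 and 0.59 in MKN45, a difference of -0.93 (adjusted p = 0.047), which passed in 3 of 18 alternatives, while its second probe gave -0.10 (adjusted p = 0.92).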

How the results depend on the processing

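At the study's thresholds the counts of members were 6 higher and 1 lower in SNU-5, 3 higher and 0 lower in MKN45, 1 and 1 for the line difference and 4 and 2 between controls. The count of members lower in MKN45, 1 in the fit reported, was 0 without background correction, with the deposited values and with probes detected on all 12 arrays, and 2 in a separate fit of the 2 groups, with the replicate block and with the mean over probes. The line difference gave 1 more positive and 1 more negative member with probes detected on all 12 arrays, which leaves out ATG5 as dim, and 1 and 1 with the replicate block, which ends the calls of TMEM41B and ATG4D. In SNU-5, PIK3R4 (adjusted p = 0.018), ATG12 (0.027) and ATG16L2 (0.034) passed with the replicate block. Leaving out each array in turn gave 10 to 14 higher and 2 to 4 lower members in SNU-5, 6 to 11 and 0 to 2 in MKN45, 1 to 3 and 1 to 2 for the line difference, and 6 to 9 and 8 to 10 between controls. The count of 6 in MKN45 came without crizotinib replicate 1 or 2. ATG4B in SNU-5 turned to -0.69 (adjusted p = 0.042) without SNU-5 control replicate 1, against 0.15 with all arrays, and lay between -0.69 and 0.61 over the arrays left out in turn. Over all members, contrasts and alternatives, 108 values lost their call, 39 gained one and 1 changed sign with a call. Apart from the changes named, the cause was not tested. A block for slide or scan date was not run, since the files used here give neither. Signals near background limit TFEB, ATG13, AMBRA1, ATG2B and, in MKN45 with crizotinib, ATG5.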
